A study of Homo sapiens with 6 samples.

Results

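The 77 genes described here encode the proteins of the cytosolic ribosome. They were chosen by name: every protein-coding gene whose symbol is RPSA, RPLP0 to RPLP2, or RPL or RPS followed by a number with an optional final A or X. Kinases of the RPS6K family, copies with an L suffix such as RPL7L1, Y-linked copies and pseudogenes were left out. No measured value entered the naming rule, although earlier results of these data were known when the genes were chosen. Of the 26347 gene rows in the count table, 31 belonged to the small subunit set (RPS genes and RPSA) and 46 to the large subunit set (RPL and RPLP genes). All 77 passed the filter on low counts, which kept 14731 genes.

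The cells were THP-1, an established human line of leukaemic origin that is labelled as monocytic. The study title speaks of macrophages, whereas the labels describe no differentiation step. The control group was 3 libraries from cells given a negative control microRNA mimic, and the other group was 3 libraries from cells given a miR-125a-5p mimic. A mimic is a synthetic duplex that loads the mature microRNA into the cell's silencing machinery. Total RNA was taken 24 h after transfection in both groups, and no library of untransfected cells was analysed here. The labels say that transfection was done in triplicate but not whether the libraries came from separate cultures, so p-values measure only the spread between these libraries. In bulk RNA a lower count can mean less RNA per cell or fewer cells that make it, and these cannot be told apart.

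Ribosomal proteins assemble with ribosomal RNA in the nucleolus into a small subunit, which decodes the messenger RNA, and a large subunit, which forms peptide bonds. Most of them are needed in equal numbers per ribosome, and an unassembled surplus is degraded. Their messenger RNAs are among the most abundant and stable of a growing cell, and many begin with a cytosine followed by an unbroken run of pyrimidines, the 5′ terminal oligopyrimidine or TOP motif, through which the mTOR pathway and the RNA-binding protein LARP1 control their translation.

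Most of the genes had a pyrimidine run at or near the annotated start. RefSeq promoter sequences on GRCh38.p14, 250 bases before and 50 bases after the annotated start, were matched for 62 of the 77. The longest run of C and T on the coding strand that reached within 10 bases of the start was at least 8 bases long in 51 of the 62 (82.3%), against 15.4% of all 27305 promoters in the table. The median run was 11 bases in the ribosomal protein genes and 4 in the whole table. The start base itself was C in 74.2% of the ribosomal protein genes and in 15.0% of the table. Start base and run were counted separately, so genes with the full TOP motif were not counted. Some runs did not cover the start, such as those of RPL10 and RPL17, which ended before it. The minimum of 8 was set after the runs had been seen. Windows of 30 bases on GRCh38.p14, from 10 bases before the annotated start, are given for genes that the expression results turn on or that mark the extremes, with the run in capitals and the start at the eleventh base.
RPLP0 (chr12:120201092-120201121, minus strand): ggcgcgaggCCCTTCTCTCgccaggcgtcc
RPSA (chr3:39406710-39406739, plus strand): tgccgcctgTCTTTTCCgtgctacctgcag
RPL18 (chr19:48619159-48619188, minus strand): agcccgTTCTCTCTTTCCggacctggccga
RPS27 (chr1:153990752-153990781, plus strand): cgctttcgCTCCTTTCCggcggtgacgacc
RPL41 (chr12:56116623-56116652, plus strand): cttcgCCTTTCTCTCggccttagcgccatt
RPS21 (chr20:62387093-62387122, plus strand): ctagctgCTTCCTTTCTCTCTCgcgcgcgg
RPL7A (chr9:133348208-133348237, plus strand): aTTCCCTTTCCTTTCTCTCTCCTCCCgccg
RPL15 (chr3:23916535-23916564, plus strand): tggggcctgctggaggagCTTCacgcagtc
RPS29 (chr14:49598691-49598720, minus strand): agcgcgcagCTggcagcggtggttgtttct

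RPL7A had the longest run, 25 bases, and RPS21, RPL41, RPS27 and RPL18 had runs of 15, 10, 9 and 12 bases across the start. RPL15 and RPS29 were among the 11 genes below the minimum, with runs of 4 and 2 bases. A run counts letters at or near an annotated start and does not show where transcription began in these cells.

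**Figure D1:**
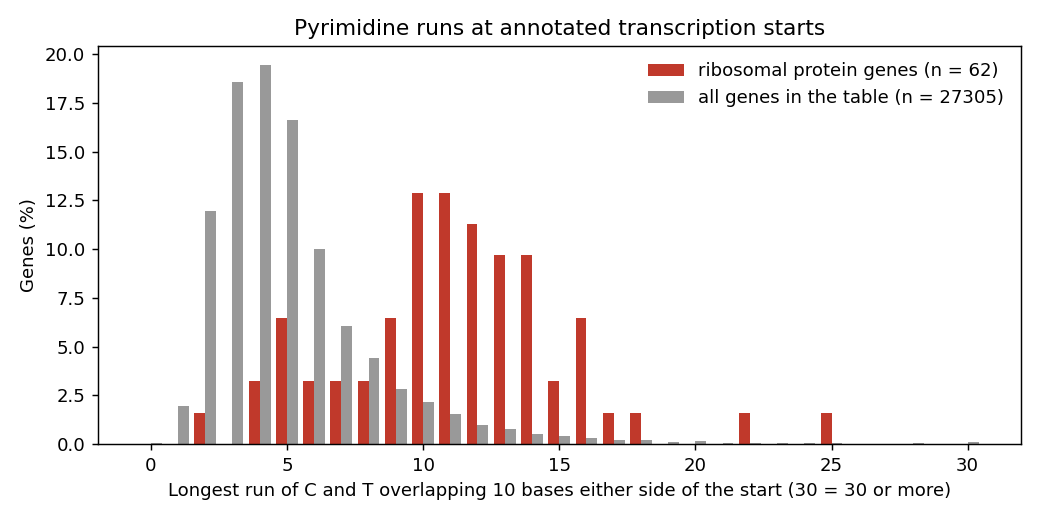
Length of the longest pyrimidine run at or near the annotated start (x axis, bases) against the percent of genes (y axis), for 62 ribosomal protein genes (red) and all 27305 genes with a 300-base promoter in the table (grey). The ribosomal protein genes centre on 11 bases and the whole table on 4 bases.

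Short motifs that are known in ribosomal protein promoters were counted on both strands of the same 300 bases. CCGGAAG, a core bound by GABP and other ETS factors, was in 33.9% of the ribosomal protein promoters and in 10.7% of the table (18.6% of the 11451 promoters of tested genes). AAGATGG, a YY1 core, was in 12.9% against 6.06% (7.34% of the promoters of tested genes). GGGCGG, bound by SP1, was in 54.8% against 44.6%, but in 66.2% of the promoters of tested genes. CACGTG, the E-box bound by MYC, was in 4.84% against 7.43%, and TATAAA was in 8.06% against 6.59% of the promoters of tested genes. Differences from the table therefore depended on which promoters served as the reference, since tested genes are those expressed here. A match describes letters and not a bound site.

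The libraries held 8256149 to 10257791 counts, with scaling factors between 0.985 and 1.01. On the first principal component over all genes (25.0% of the variance) control library 1 was at -38.2 and the remaining 5 libraries were at 1.14 to 16.3. All 12 monocytic markers listed (among them CSF1R, CD68 and PTPRC) were measured, with summed levels of 4047 to 4632 CPM (counts in 1000000 library counts, after TMM (trimmed mean of M-values) scaling) in the controls and 4024 to 4252 CPM after miR-125a-5p. Defining markers of T cells, erythroid cells and epithelium summed to less than 1 CPM in every library, and those of fibroblasts to 0.773 to 3.67 CPM. The B cell list summed to 45.0 to 86.5 CPM, carried by PAX5, with MS4A1 and CD79A at or near 0.

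Ribosomal protein transcripts took about 3 in every 100 counts in both groups. The share was 3.03%, 2.71% and 2.78% in control libraries 1, 2 and 3, and 2.78%, 3.05% and 2.88% in miR-125a-5p libraries 1, 2 and 3. The means were 2.84% ± 0.168 and 2.91% ± 0.138 (SD, n = 3 each). The groups overlapped, and the highest values were in control library 1 and miR-125a-5p library 2. Without control library 1 the control mean was 2.75%, and without miR-125a-5p library 2 the other mean was 2.83%.

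The ratio of large to small subunit counts varied less than the share. It was 1.26, 1.27 and 1.26 in the controls (mean 1.262 ± 0.004, SD, n = 3) and 1.27, 1.25 and 1.27 after miR-125a-5p (mean 1.263 ± 0.012, SD, n = 3). The means differed by less than the spread within either group. The libraries with the high shares, control library 1 and miR-125a-5p library 2, had ratios of 1.26 and 1.25, so both subunits were high together in them. This ratio compares summed counts and not numbers of protein molecules.

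Single genes differed widely in level. Raw counts ran from 348 to 13549 per gene and library, and mean CPM from 46.4 for RPS29 to 1280 for RPL5, with a median of 340 against 21.3 for all genes tested. Levels between genes were compared per kilobase of the shortest complete coding transcript in GENCODE 29, for the 71 genes where that transcript was at most 2000 bases. The limit was set after the lengths had been seen, because RPL4, RPL22, RPL27A, RPL37, RPL37A and RPS23 had only longer complete transcripts with a long annotated 3′ untranslated region. On this scale the median was 456 CPM per kilobase.

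The highest genes per kilobase included RPS27 at 1494 ± 244, RPL41 at 1392 ± 169, RPS18 at 1292 ± 123 and RPL5 at 1245 ± 103 CPM per kilobase (SD over all 6 libraries). RPS27 is a zinc-finger protein of the small subunit, RPL41 is the shortest protein of the set, RPS18 is a small subunit protein, and RPL5 carries the 5S ribosomal RNA. Each step from 1 of these 4 genes to the next was smaller than the SD of either, but that SD is over libraries that all 4 genes share. Within libraries, RPS27 was below RPL41 only in miR-125a-5p library 1 (1357 against 1367 CPM per kilobase). The order of RPL41, RPS18 and RPL5 also changed between libraries, and the length used enters every value. The order of the 4 genes is therefore not settled. The 5 lowest were RPS28 at 35.3 ± 3.99, RPS26 at 131 ± 10.7, RPS21 at 151 ± 32.005, RPS29 at 157 ± 18.6 and RPS9 at 164 ± 12.4 CPM per kilobase. RPS28 lay below every other gene of the 71 in all 6 libraries, but its shortest complete transcript holds an annotated 3′ untranslated region of 1085 bases, and the length used sets this value.

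**Figure D2:**
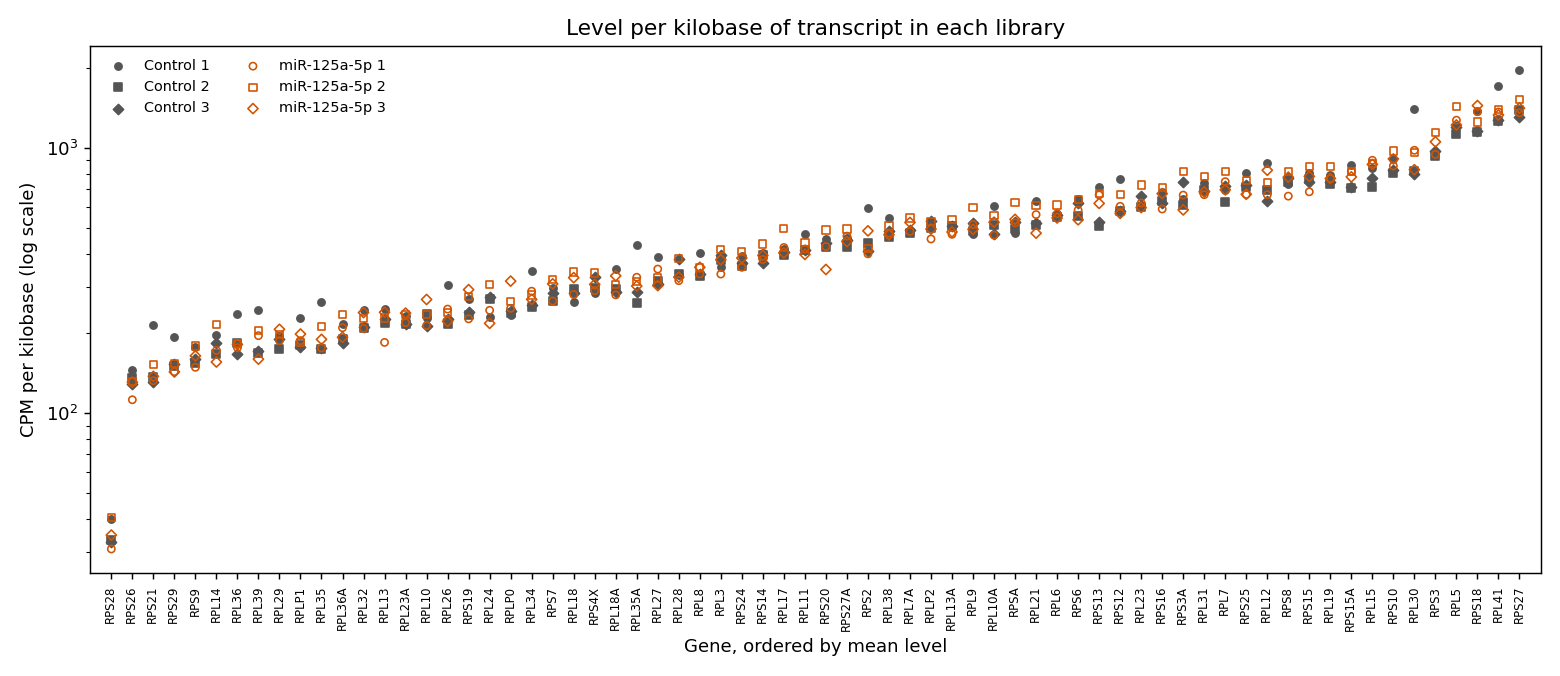
Level per kilobase (y axis, log scale) of 68 of the 71 ribosomal protein genes ranked per kilobase, ordered by mean (x axis), with control libraries filled in grey and miR-125a-5p libraries open in orange. Levels span from 35.3 (RPS28) to 1494 (RPS27) CPM per kilobase, and control library 1 (filled circles) stands above the other libraries for genes such as RPS21, RPL35A, RPL30 and RPS27.

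Some of these genes had neighbouring or copied genes with equal or comparable counts. Whether the same reads were counted for both was not tested. RPL21P28, a copy of RPL21, held exactly the same count as RPL21 in all 6 libraries (2457 to 3952). RPL17-C18orf32, a read-through gene that runs on from RPL17, differed from RPL17 by at most 23 counts in any library. RPS10-NUDT3 held 103% to 109% of the RPS10 count, and RPL36A-HNRNPH2 held 167% to 185% of the RPL36A count. RPL13AP5 held 77.3% to 89.9% of RPL13A and RPSA2 58.3% to 62.6% of RPSA. Values for RPL21, RPL17, RPS10, RPL36A, RPL13A and RPSA are therefore uncertain as measures of a single locus. The 30 rows named as ribosomal protein pseudogenes summed to 3.14% to 3.51% of the counts of the 77 genes, and without RPL21P28 and RPL13AP5 to 0.321% to 0.407%.

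The comparison of miR-125a-5p with control mimic called 0 of the 77 genes higher and 0 lower (edgeR's quasi-likelihood test, Benjamini-Hochberg adjusted p under 0.05 over 14731 genes). The background was 0% of all genes called higher and 0.0272% (4 genes) called lower, so a count of 0 in 77 is what the background gives. At an unadjusted p under 0.05 there were 2 genes higher, RPLP0 and RPL15, and 0 lower, which is 2.60% of the 77 against 2.69% of all genes higher and 3.22% lower. DESeq2 and limma voom also called 0 of the 77, with 3 each at an unadjusted p under 0.05. The smallest adjusted p of the set was 0.833.

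Fold changes lay in a narrow band around 0. Log2 fold changes (miR-125a-5p minus control) ran from -0.19 for RPS21 to 0.21 for RPLP0, that is from 0.874-fold to 1.15-fold. The median was 0.0013, against 0.0011 for all genes tested, with 40 genes above 0 and 37 below. The SD of the fold changes across the 77 genes was 0.098, against 0.279 for all genes and 0.128 for the 4541 other genes in the same range of mean CPM. Standard errors ran from 0.085 to 0.149. The 95% intervals of all 77 genes lay between -0.50 (RPS21, 0.707-fold) and 0.40 (RPLP0, 1.32-fold), so larger changes lay outside the interval of every gene. The median biological coefficient of variation was 8.62% for the 77, 9.13% for other genes in the same range of CPM and 13.2% for all genes. The other genes were not matched to the 77 by level within that range, so neither spread was compared at equal level.

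**Figure D3:**
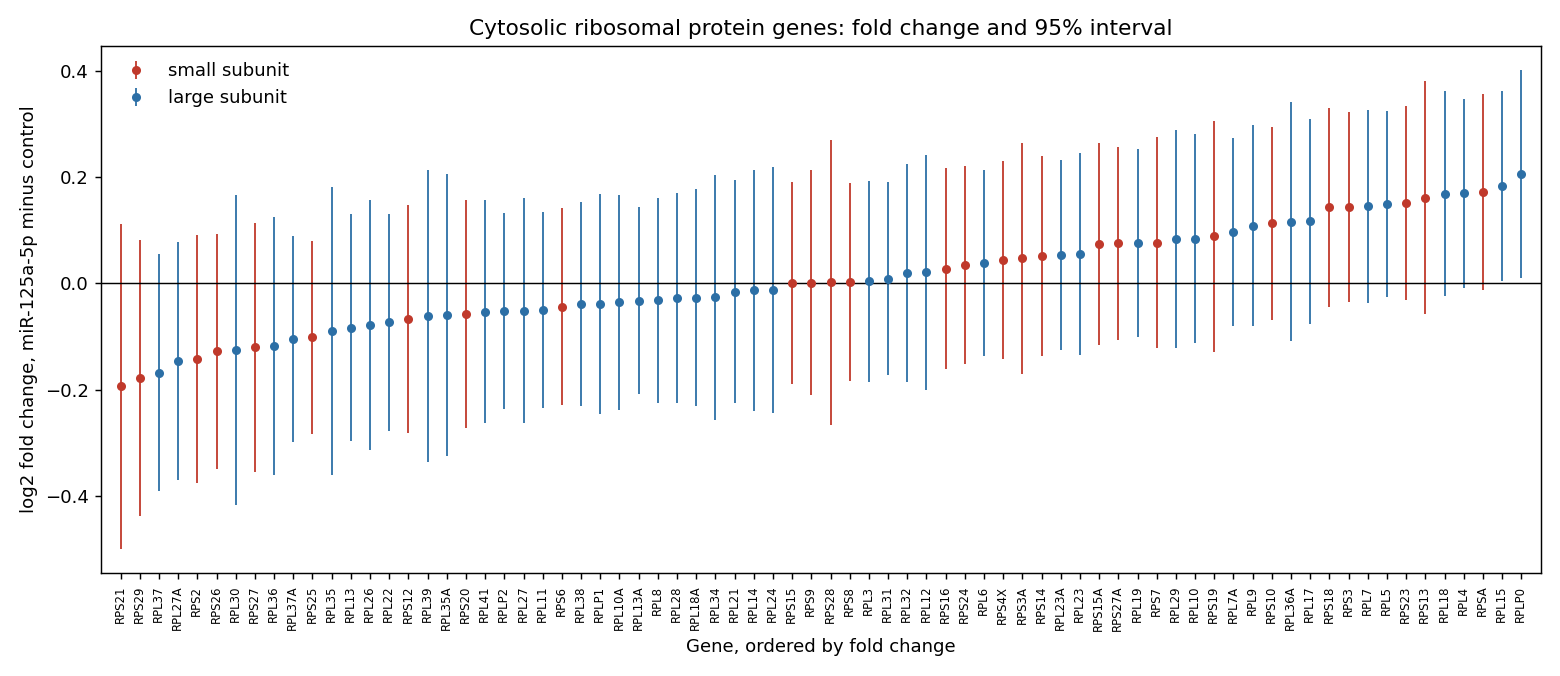
Log2 fold change of 74 of the 77 genes (y axis, points) with its 95% interval (bars), ordered along the x axis, for small subunit genes in red and large subunit genes in blue. Points run from -0.19 (RPS21) to 0.21 (RPLP0) and all but 2 intervals, those of RPL15 and RPLP0, include 0.

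The median of the set moved with single libraries. Without control library 1 it was 0.079 with 60 of 77 genes above 0, and without miR-125a-5p library 2 it was -0.062 with 27 above 0. Without miR-125a-5p library 1 it was 0.051 with 49 above 0. No gene of the 77 was called in any of these fits, and the smallest adjusted p without control library 1 was 0.330, for RPS13 (log2 fold change 0.33 in that edgeR fit and 0.16 with all libraries, 0.072 without control library 2 and 0.092 without control library 3, a gene named after its values were seen).

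Groups that did not overlap were found in 4 genes with higher values after miR-125a-5p (5.19%) and 0 with lower values. Among all genes tested the shares were 5.31% and 5.9%. The share with higher values was thus near the background.

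RPLP0 (NCBI gene 6175), the base of the stalk that recruits translation factors and a common reference gene in quantitative PCR, was at 285, 292 and 297 CPM in the controls and at 303, 322 and 384 CPM after miR-125a-5p. Control library 3 and miR-125a-5p library 1 were the nearest across the groups, and miR-125a-5p library 3 was the highest of all. The log2 fold change was 0.21 ± 0.095 (SE), with an edgeR adjusted p of 0.833, and it was 0.098 without miR-125a-5p library 3.

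RPL15 (NCBI gene 6138), a large subunit protein buried in ribosomal RNA, was at 691, 584 and 633 CPM in the controls and at 737, 718 and 711 CPM after miR-125a-5p. The 3 miR-125a-5p values were close together and control library 1 came nearest to them. The log2 fold change was 0.18 ± 0.086 (SE), with an edgeR adjusted p of 0.833.

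RPL4 (NCBI gene 6124), which reaches into the exit tunnel, was at 661, 702 and 705 CPM in the controls and at 706, 808 and 812 CPM after miR-125a-5p. MiR-125a-5p library 1 lay less than 1 CPM above control library 3, so the groups were only just apart. The log2 fold change was 0.17 ± 0.086 (SE). RPL5 (NCBI gene 6125) was at 1241, 1164 and 1236 CPM in the controls and at 1309, 1473 and 1255 CPM after miR-125a-5p, with a log2 fold change of 0.15 ± 0.085 (SE). Its libraries were apart by a gap smaller than the range within the controls, and the fold change was 0.078 without miR-125a-5p library 2.

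The next smallest p-values among genes with positive fold changes included those of RPSA and RPL18. RPSA, the small subunit protein also known as the laminin receptor, was at 559, 579 and 614 CPM in the controls and at 612, 732 and 630 CPM after miR-125a-5p, and its groups overlapped. RPL18, a large subunit protein, had a log2 fold change of 0.17 with overlapping groups and an edgeR adjusted p of 0.864. Without miR-125a-5p library 2 the log2 fold changes were 0.086 for RPSA and 0.107 for RPL18.

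On the other side the smallest p-values were those of RPL37, RPS29, RPL27A, RPS21, RPS2 and RPS26, with log2 fold changes of -0.17, -0.18, -0.15, -0.19, -0.14 and -0.13. RPL37 and RPS29 are small zinc-binding proteins of the large and small subunit. RPL37 was at 228, 180 and 173 CPM in the controls and at 166, 192 and 159 CPM after miR-125a-5p. RPS21, a short protein of the small subunit, was at 73.8, 47.1 and 45.2 CPM in the controls and at 45.7, 52.4 and 47.4 CPM after miR-125a-5p. Control library 1 alone was high for RPS21, and the other 5 libraries overlapped.

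RPS2, at the messenger RNA entry site, was at 584, 431 and 402 CPM in the controls and at 393, 412 and 480 CPM after miR-125a-5p. Here too control library 1 was the highest of the 6. Without that library the log2 fold changes of RPL27A, RPS21 and RPS2 were 0.015, 0.070 and 0.037, and those of RPL37, RPS29 and RPS26 were -0.036, -0.057 and -0.086. Without miR-125a-5p library 2 that of RPL37 was -0.26, and without miR-125a-5p library 1 that of RPS26 was -0.059. The smallest edgeR adjusted p of the 6 genes with all libraries was 0.884.

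By subunit, 20 of 31 small subunit genes and 20 of 46 large subunit genes had positive fold changes, with medians of 0.028 and -0.021 against 0.0011 for all genes tested. In both sets 0 genes were called. The 2 genes at an unadjusted p under 0.05 were both of the large subunit.

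The role lists gave 0 calls each. RPL5 and RPL11 form the 5S particle that binds MDM2 when assembly is disturbed, and 1 of the 2 had a positive fold change: RPL5 had 0.15, and RPL11 had -0.05 with 481, 421 and 418 CPM in the controls and 423, 448 and 404 CPM after miR-125a-5p. Of the 4 P-stalk genes (RPLP0, RPLP1, RPLP2 and RPL12) 2 were above 0, with a median of -0.009. RPLP1 and RPLP2, the acidic partners that pair on RPLP0, were at 234 ± 34.5 and 325 ± 9.86 CPM in the controls and at 228 ± 8.85 and 314 ± 23.9 CPM after miR-125a-5p (SD, n = 3 each).

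Of the 10 genes lining the tunnel and its exit, 5 were above 0 with a median of -0.015 and a range of -0.09 (RPL35, 0.132 without control library 1) to 0.17 (RPL4). Of the 5 genes at the entry and decoding sites, 4 were above 0 with a median of 0.0013. RPS23, which sits at the decoding centre, was at 407, 362 and 361 CPM in the controls and at 417, 440 and 399 CPM after miR-125a-5p, with a log2 fold change of 0.15. RPS3, at the entry of the channel, was at 815, 808 and 842 CPM in the controls and at 819, 989 and 914 CPM after miR-125a-5p, with a log2 fold change of 0.14 (0.076 without miR-125a-5p library 2). Both pairs of groups overlapped.

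Among late-joining proteins (RPL10, RPL24, RPS10 and RPS26) 2 of 4 were above 0. Among proteins that signal or are made as fusions (RPS6, RPS27A, RPSA, RPS3 and RPL13A) 3 of 5 were above 0. RPS6, the substrate of S6 kinase, was at 890, 766 and 859 CPM in the controls and at 809, 888 and 744 CPM after miR-125a-5p, with a log2 fold change of -0.04. Of the 20 genes linked to Diamond-Blackfan anaemia, an inherited failure of red cell production, 10 were above 0 with a median of -0.024. RPS19, the gene first linked to that disease, was at 142, 124 and 127 CPM in the controls and at 119, 145 and 154 CPM after miR-125a-5p, with a log2 fold change of 0.09 that ran from 0.0088 to 0.19 as single libraries were left out, lowest without miR-125a-5p library 3 and highest without miR-125a-5p library 1.

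Most of these genes peaked in 1 of 2 libraries, which belonged to different groups. The highest of the 6 libraries was control library 1 for 34 genes, miR-125a-5p library 2 for 35, miR-125a-5p library 3 for 7 and miR-125a-5p library 1 for 1. Measured as log2 CPM minus the mean of the 6 libraries, the median deviation of the 77 genes was 0.089, -0.084 and -0.056 in control libraries 1, 2 and 3, and -0.056, 0.109 and -0.018 in miR-125a-5p libraries 1, 2 and 3. One library of each group was thus high and the others were near or below 0.

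The genes with the largest spread within a group included RPL30, RPS21, RPL35A and RPL35, all in the controls, with coefficients of variation of 34.3%, 28.9%, 28.2% and 24.8%. RPL30, whose yeast counterpart binds its own transcript, was at 764, 444 and 434 CPM in the controls and at 532, 523 and 450 CPM after miR-125a-5p. RPL35A was at 239, 145 and 159 CPM in the controls and at 180, 174 and 167 CPM after miR-125a-5p. For both genes control library 1 was alone at the top and control libraries 2 and 3 were below all 3 miR-125a-5p libraries, which left the groups overlapping. The log2 fold change of RPL30 was -0.13 with all libraries and 0.19 without control library 1.

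Control library 1 was the highest control for 57 of the 77 genes and the lowest for 12. Its level divided by the mean of the other controls ran from 0.846 (RPL24) to 1.74 (RPL30), with a median of 1.12, and was at least 1.2 for 26 genes. The excess was largest among short genes. For the 24 genes with a coding length of at most 400 bases the median deviation of control library 1 was 0.27, against -0.11 to 0.057 in the other 5 libraries. For the 14 genes of at least 700 bases it was -0.061 in control library 1 and 0.14 in miR-125a-5p library 2. RPS2, RPL8 and RPS6 were the long genes in which control library 1 stood above the mean of the libraries.

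Across the 77 genes, which share each library, Spearman's rho between coding length and the deviation was -0.63 in control library 1 and 0.01 to 0.43 in the other 5. The log2 fold change between the groups was itself related to coding length across the 77 genes, with a rho of 0.56: 4 of the 24 short genes and 11 of the 14 long genes had positive fold changes, with medians of -0.064 and 0.072. Control library 1 enters these values, with median deviations of 0.27 for short and -0.061 for long genes. Those for short genes were -0.091 and -0.113 in control libraries 2 and 3, and those for long genes -0.095 and -0.022. The relation of fold change to length was not computed without control library 1. The length limits were set after the data had been seen, and these relations are descriptions without a test.

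Genes outside the set that were at least as abundant as its lowest member showed a like pattern. The 151 others with a coding length of at most 400 bases had a median deviation of 0.122 in control library 1, -0.089 and -0.074 in control libraries 2 and 3, and 0.0013 to 0.024 after miR-125a-5p. The 3734 others of at least 700 bases had -0.024 in control library 1. The median of the short ribosomal protein genes in control library 1, 0.27, was above that of the other short genes. The part of transcript length or of library preparation in these differences was not tested. With the length trend of each library removed, 34 of the 77 fold changes were above 0, their median was -0.010, and 0 were called. That trend was fitted on the length of the shortest complete transcript and not on coding length. It therefore treated some short coding genes as long, such as RPL37 (coding length 294 bases, transcript 7686 bases).

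**Figure D4:**
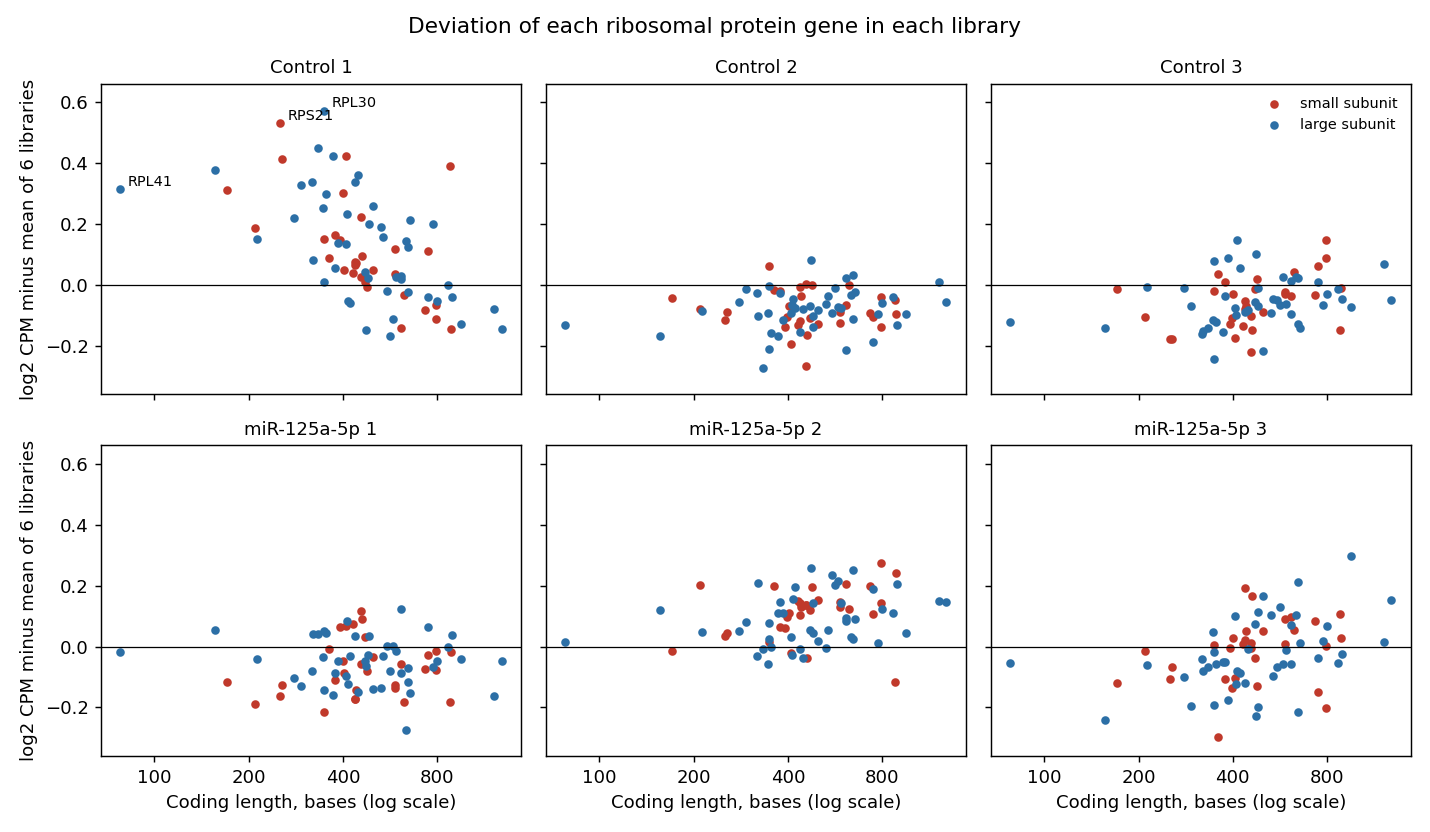
Deviation of each of the 77 genes in each library (y axis, log2 CPM minus the mean of the 6 libraries) against coding length (x axis, log scale), small subunit genes in red and large subunit genes in blue. In control library 1 short genes lie high (RPL30 at 0.57) and most long genes lie near or below 0, while in miR-125a-5p library 2 most genes of any length lie above 0.

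Whether the transfected microRNA could pair with these transcripts was examined by letters. The mature sequence from RefSeq (GRCh38.p14, chr19:51693268-51693291, plus strand) is given with its seed, bases 2 to 8, in capitals.
hsa-miR-125a-5p: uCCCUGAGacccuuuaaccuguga

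Matches of the transcript strand to CTCAGGGA (8mer), CTCAGGG (7mer-m8), TCAGGGA (7mer-A1) and TCAGGG (6mer) were counted in GENCODE 29 transcripts, each gene under its best match. Ribosomal protein messenger RNAs offered little sequence for such sites. The median 3′ untranslated region of the shortest complete transcript was 56 bases, against 828 in the 12439 tested genes with a transcript, and the median coding length was 459 against 1425 bases. A match of 7 or 8 bases was in the 3′ untranslated region of 2 of the 77 genes (2.60%), RPL37 and RPL22, against 19.2% of tested genes. With the longest complete transcripts it was in 5 (6.49%) against 21.8%. In coding sequence it was in 9 genes (11.7%) against 25.1%. In 5′ untranslated regions of the shortest complete transcripts it was in 3 genes (3.90%), RPL7, RPL27A and RPL28, against 3.64%. These shares were not adjusted for length.

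The 8mers were in the coding sequence of RPS7, RPS19 and RPS28, in the annotated 3′ untranslated region of RPL37 and, in the longest complete transcript only, in the 5′ untranslated region of RPL36. Each is shown with the match in capitals, in 30 bases of the transcript.
RPS7 (chromosome 2, coding base 118 onward): tcaaggctcagCTCAGGGAgctgaatatta
RPS19 (chromosome 19, coding base 374 onward): caaactgacacCTCAGGGAcaaagagatct
RPS28 (chromosome 19, coding base 68 onward): caggaccggttCTCAGGGAcagtgcacgca
RPL37 (chromosome 5, base 5599 of the 3′ untranslated region onward): agtcccagctaCTCAGGGAgctgaggtgga
RPL36 (chromosome 19, base 371 of the 5′ untranslated region onward): aaacgcgcatgCTCAGGGAgctcggtcgcg

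RPS7, a small subunit protein, was at 209, 187 and 200 CPM in the controls and at 187, 225 and 217 CPM after miR-125a-5p, with a log2 fold change of 0.08, which ran from 0.021 without miR-125a-5p library 2 to 0.152 without miR-125a-5p library 1. RPS28 was at 53.0, 44.0 and 43.3 CPM in the controls and at 40.9, 53.6 and 46.1 CPM after miR-125a-5p. RPL36, a large subunit protein, was at 106, 82.4 and 75.1 CPM in the controls and at 79.4, 82.2 and 81.7 CPM after miR-125a-5p. For these 3 genes, and for RPS19 and RPL37 above, the groups overlapped and none was called. The RPL37 match lies deep in an annotated region of 7242 bases, and the gene counts do not show whether THP-1 cells made that form. RPL22, a large subunit protein with a 7mer-A1 in its 3′ untranslated region, was at 224, 188 and 216 CPM in the controls and at 197, 220 and 180 CPM after miR-125a-5p, again overlapping.

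Ribosomal genes outside the naming rule also gave 0 calls. FAU encodes a ribosomal protein fused to a ubiquitin-like protein, and RACK1 is a signalling scaffold on the small subunit. FAU was at 109, 72.9 and 74.0 CPM in the controls and at 81.2, 79.6 and 73.8 CPM after miR-125a-5p, with control library 1 again alone at the top. RACK1 was at 311 ± 9.66 and 318 ± 17.5 CPM in control and miR-125a-5p libraries (SD, n = 3 each). Unlike FAU, RACK1 had its lowest control value, 303 CPM, in control library 1.

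The L-suffixed copies were mostly far lower than their counterparts. RPL3L and RPL10L had 0 counts in all 6 libraries, which allows up to 3 of 53871984 counts or 0.0557 CPM for counting error only. RPL22L1, RPL26L1, RPL39L and RPS27L were at 6.68 ± 1.51, 7.98 ± 1.01, 7.60 ± 2.43 and 11.5 ± 2.16 CPM in the controls and at 8.27 ± 1.99, 7.57 ± 1.93, 8.18 ± 1.34 and 14.1 ± 0.827 CPM after miR-125a-5p. RPL7L1 and RPL36AL were at 65.8 ± 3.00 and 80.2 ± 4.03 CPM in the controls and at 64.1 ± 3.18 and 78.8 ± 8.17 CPM after miR-125a-5p. Of the 6 tested copies 0 were called, and RPS27L and RPL22L1 had the smallest p, with log2 fold changes of 0.29 (0.46 without control library 1 and 0.19 without control library 2) and 0.31 (0.134 without control library 3 and 0.090 without miR-125a-5p library 1).

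Genes of the surrounding pathway were read from lists of known members, and 0 were called in any of them. Among 16 other genes listed for TOP messenger RNAs, 13 had positive fold changes with a median of 0.057, against 50.2% of all genes tested. That list holds translation factors and also other genes such as VIM, HNRNPA1 and NAP1L1. EIF3E, a subunit of initiation factor eIF3, was at 178, 217 and 242 CPM in the controls and at 277, 354 and 167 CPM after miR-125a-5p. Its groups overlapped, and its log2 fold change of 0.33 was 0.21 without control library 1, 0.065 without miR-125a-5p library 2 and 0.57 without miR-125a-5p library 3. EEF1G, a subunit of elongation factor 1, had a log2 fold change of 0.20 with overlapping groups, which was 0.026 without control library 1, 0.121 without miR-125a-5p library 2 and 0.34 without control library 3. Among 38 ribosome assembly factors, 26 had positive fold changes with a median of 0.079. SBDS, which helps release eIF6 from new large subunits, was at 23.5, 22.3 and 25.0 CPM in the controls and at 31.7, 32.4 and 29.3 CPM after miR-125a-5p. Its groups did not overlap, and its log2 fold change of 0.40 had an edgeR adjusted p of 0.627. BRIX1, a factor of large subunit assembly, had 0.42 with overlapping groups, and 0.24 without miR-125a-5p library 1.

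Among 14 RNA polymerase I genes, which transcribe ribosomal RNA, 9 had positive fold changes with a median of 0.167. POLR1C and POLR1D, partner subunits shared with RNA polymerase III, had log2 fold changes of 0.28 and -0.27 with groups apart in opposite directions and edgeR adjusted p of 0.767 and 0.764. Among 12 regulators such as MYC, MTOR and LARP1, 8 had positive fold changes with a median of 0.041. ZNF622, a factor of late large subunit maturation, was at 13.5, 19.3 and 19.2 CPM in the controls and at 30.8, 24.8 and 20.7 CPM after miR-125a-5p, with a log2 fold change of 0.56 and an edgeR adjusted p of 0.555. RPTOR, the adaptor of mTOR complex 1, had -0.20 with groups apart. The medians of these lists, given beside 0.0013 for the ribosomal proteins themselves, are descriptions without a test. The median of the ribosomal proteins was 0.079 without control library 1. The counts and medians of the lists were not computed with libraries left out, so the order of these medians is not settled.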

How the data were processed

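The deposited table holds raw counts per gene for 6 libraries, with no normalization by the authors. The notes of the submitters name bcl2fastq, TopHat, edgeR and the build hg19, without versions. What tool and annotation served for counting, and how strand and reads with several matches were treated, is not given in the sources used here. Columns were matched to libraries by the names in the labels, and 0 columns belonged to no library. Gene identifiers were matched to RefSeq symbols for 26204 rows (99.5%).

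The test was run in edgeR 4.0.16 (R 4.3.3, filterByExpr, scaling by the trimmed mean of M-values, glmQLFit and glmQLFTest without covariates), and p-values were adjusted by Benjamini-Hochberg over 14731 genes at a threshold of 0.05. The SE is the log2 fold change divided by the square root of F. CPM use the same factors. Alternatives covered scaling, filter, DESeq2 1.42.0, limma 3.58.1 voom, the likelihood ratio test, threshold, each library left out, and the replicate block. Leaving out read-through and copy rows, and removing a trend on transcript length per library (loess, span 0.5), were added after seeing the data.

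On simulated counts of 14731 genes for this comparison the test recovered 45.0% of log2 changes of 0.5 and 88.3% of changes of 1. These rates cover 300 planted changes of each size in 3 runs, in genes drawn over a wide range of levels. They were not computed for the 77 genes, whose median level is far above that of all genes tested. No pair of libraries agreed within sampling noise over the 77 genes (chi-square per gene 6.12 to 60.2 within a group and 13.2 to 52.2 between groups), so all 6 were counted.

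Transcripts are from GENCODE 29 on GRCh38 and promoters and the microRNA from RefSeq on GRCh38.p14, which is another build than that of the counts. The genes and lists were chosen with earlier results of these data known. Genes were named by rule: any called gene, the 6 smallest p in each direction, the 5 highest and 5 lowest levels, the 5 largest spreads within a group, up to 4 per role list, and the 2 smallest p per pathway list. Genes with seed matches, with read-through or copy rows or shown for their starts were named after their values were seen. Some genes that these rules pick are not reported here.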

Additional observations from a re-analysis of the deposited data

How the results depend on the processing

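In all 17 alternatives 0 of the 77 genes were called. Leaving out control library 1 changed the sign of 26 of the 77 log2 fold changes, leaving out any other library that of 9 to 15, and 47 changed sign in at least 1 of the 6 cases. Of the genes named with a fold change, those of RPL27A, RPS21, RPS2, RPL11, RPL30, FAU and RPL35 turned without control library 1, to 0.015, 0.070, 0.037, 0.016, 0.19, 0.086 and 0.132. Without miR-125a-5p library 3 those of RPS6 and RACK1 turned, to 0.014 and -0.00091. With each library left out in turn these values ran from -0.22 to 0.015 for RPL27A, from -0.32 to 0.070 for RPS21, from -0.25 to 0.037 for RPS2, from -0.092 to 0.016 for RPL11, from -0.27 to 0.19 for RPL30, from -0.23 to 0.086 for FAU, from -0.113 to 0.014 for RPS6 and from -0.00091 to 0.074 for RACK1. The median of the set ran from -0.062 to 0.079 and the number of genes above 0 from 27 to 60. With ribosomal genes outside the naming rule added, the ratio of large to small subunit counts was 1.28 in both groups, and the shift came from the added genes. Replicate numbers did not pair the libraries (correlations of deviations 0.056, 0.014 and -0.016). With the replicate block 35 genes were above 0, with a median of -0.0029, 3 at an unadjusted p under 0.05 and 0 called. Over all genes the calls of higher and lower genes were 0 and 4, but 11 and 41 without the low-count filter, 2 and 10 with DESeq2, 4 and 17 with the likelihood ratio test, 0 and 7 at a threshold of 0.1, 0 and 9 with the replicate block, 0 and 14 without control library 3 and 2 and 4 without miR-125a-5p library 3. Depth did not limit the detection of these genes, each of which had at least 348 counts in every library. The number of libraries limits the precision of the fold changes.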
